A study of Mus musculus with 4 samples.

Results

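The genes described here code for 10 enzymes of glycolysis, Hk2, Gpi1, Pfkl, Aldoa, Tpi1, Gapdh, Pgk1, Eno1, Pkm and Ldha, out of 27932 genes in the count tables. They were taken as a listed set by name, and all 10 were found and were tested in every comparison except 1 alternative choice of stromal cells, which had 9. Drop-seq, in which a cell and a barcoded bead share a droplet and transcripts are read from their 3' ends, was run on dissociated kidneys of E14.5 mice. Of the 4 libraries, 2 came from mutant kidneys labelled Hoxa9,10,11 and Hoxd9,10,11 -/- and 2 from wildtype kidneys. Both genotypes had a mixed background, mostly of CD-1 and 129 stock. The title of the series asks how far kidney lineages stay true to type when the function of these Abd-B class Hox genes is reduced. The labels do not say whether the 2 libraries of a genotype came from separate animals, so p-values reflect how far these libraries vary, and that variation may be technical.

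Glycolysis splits glucose into pyruvate in the cytosol, and lactate dehydrogenase can then turn pyruvate into lactate while regenerating the cofactor that Gapdh uses. Hexokinase and phosphofructokinase carry out irreversible early steps, and pyruvate kinase carries out the last one. In the developing kidney, nephron progenitors are known for high glycolytic activity, whereas the mature proximal tubule is known for oxidative metabolism and for making glucose.

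Cells were assigned to lineages by their counts of marker transcripts. A cell was placed in a gate when 1 of 10 marker lists held at least 3 of its UMIs (counted transcripts) and at least 2 times the UMIs of every other list, and tubule joins the proximal list with the loop and distal list. All kept cells outside the progenitor, early nephron, tubule and stroma gates were called other cells. None of the 10 enzymes was a marker. After filtering, mutant 1 held 810 cells, mutant 2 4329, wildtype 1 1852 and wildtype 2 4788, with median depths of 2467, 3021, 3595 and 3451 UMIs per cell. The progenitor gate held 1 and 28 mutant cells and 322 and 818 wildtype cells. The early nephron gate held 39 and 300 mutant cells and 117 and 273 wildtype cells, the tubule gate 47 and 287 against 146 and 229, and the stroma gate 403 and 2083 against 525 and 1073. Counts were summed per gate and library, and sums of fewer than 20 cells were not used, so progenitor values come from mutant 2 and both wildtype libraries only. Levels are given as CPM, counts per 1000000 UMIs of that sum.

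Markers kept out of the gates were read as a check. Itga8, Gdnf and Sall1 summed to 184 to 365 CPM in the progenitor gate, 38.6 to 126 in early nephron, 33.6 to 66.7 in tubule and 135 to 225 in stroma, so the stroma range overlapped that of the progenitors. Col1a2, Col6a1 and Pdgfrb summed to 1184 to 6053 CPM in the stroma gate and to at most 88.1 in the 3 nephron gates. For early nephron, Emx2 had 253 and 300 CPM in mutant and 247 and 309 CPM in wildtype libraries, against 448 and 247 CPM in mutant and 217 and 220 CPM in wildtype tubule cells, so it did not separate these gates. Cdh4 had 133 and 83.3 CPM in mutant and 83.7 and 81.5 CPM in wildtype early nephron cells, against 44.8 and 31.8 CPM in mutant and 53.2 and 27.6 CPM in wildtype tubule cells, which did not overlap. The 9 progenitor gate markers themselves summed to 1177 to 1749 CPM in the progenitor gate and 120 to 183 in the tubule gate. Barcodes with over 10% mitochondrial counts, which were left out, made up 19.6% and 29.1% of the mutant libraries and 7.76% and 9.06% of the wildtype libraries. Malat1, a nuclear RNA that is often high in damaged cells, stood at 4552 and 6550 CPM in mutant and 2277 and 1675 CPM in wildtype libraries. The 6 targeted Hox genes ranged from 28.1 to 196 CPM in mutant and from 19.7 to 175 CPM in wildtype libraries, and none passed the test between genotypes (lowest adjusted p = 0.117 in edgeR). The kind of mutation is not named in the labels, and a mutated gene can still give 3' tags, so these counts do not check the genotypes.

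Promoter sequences are shown for the 3 members whose level was higher in tubule than in progenitor cells, Gpi1, Aldoa and Tpi1, and for 2 of the 5 that were lower there, Hk2 and Ldha. RefSeq promoters on GRCm38.p6, from 250 bases before to 50 bases after the transcript start, were found for 10 of 10 members, 16 promoters in all. They were searched on both strands for ACGTG and GCGTG, the core letters of the site bound by hypoxia-inducible factor, and CACGTG, read on both strands, counts as 2 matches to ACGTG. The matches are in capitals, and each sequence runs 5′ to 3′ on the strand of the gene. Hk2 is at chr6:82774405-82774704 on the minus strand, Gpi1 at chr7:34230287-34230586 on the minus strand, the most downstream of 3 Aldoa promoters at chr7:126799129-126799428 on the minus strand, Tpi1 at chr6:124814109-124814408 on the minus strand, and the upstream Ldha promoter at chr7:46845554-46845853 on the plus strand.
Gpi1: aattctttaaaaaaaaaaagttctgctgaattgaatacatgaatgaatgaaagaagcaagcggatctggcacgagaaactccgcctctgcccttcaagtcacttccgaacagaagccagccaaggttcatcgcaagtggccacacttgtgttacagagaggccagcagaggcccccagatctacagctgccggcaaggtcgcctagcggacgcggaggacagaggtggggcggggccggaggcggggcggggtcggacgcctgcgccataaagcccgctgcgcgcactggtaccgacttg
Aldoa: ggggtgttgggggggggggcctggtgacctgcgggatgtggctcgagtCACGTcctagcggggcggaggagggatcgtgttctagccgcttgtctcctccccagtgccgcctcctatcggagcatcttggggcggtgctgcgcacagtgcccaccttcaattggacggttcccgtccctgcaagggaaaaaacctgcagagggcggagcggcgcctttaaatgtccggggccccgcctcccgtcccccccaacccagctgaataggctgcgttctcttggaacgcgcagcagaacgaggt
Tpi1: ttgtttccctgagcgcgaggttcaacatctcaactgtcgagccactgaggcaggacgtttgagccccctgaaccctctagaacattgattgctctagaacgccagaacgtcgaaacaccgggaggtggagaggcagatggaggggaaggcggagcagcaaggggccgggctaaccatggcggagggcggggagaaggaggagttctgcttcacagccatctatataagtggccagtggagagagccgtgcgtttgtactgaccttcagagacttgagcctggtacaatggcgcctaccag
Hk2: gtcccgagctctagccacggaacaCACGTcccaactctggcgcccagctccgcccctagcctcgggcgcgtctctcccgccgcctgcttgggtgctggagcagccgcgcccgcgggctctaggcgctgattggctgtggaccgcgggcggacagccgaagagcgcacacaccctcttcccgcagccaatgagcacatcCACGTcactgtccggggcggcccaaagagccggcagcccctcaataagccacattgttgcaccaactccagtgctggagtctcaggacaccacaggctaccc
Ldha: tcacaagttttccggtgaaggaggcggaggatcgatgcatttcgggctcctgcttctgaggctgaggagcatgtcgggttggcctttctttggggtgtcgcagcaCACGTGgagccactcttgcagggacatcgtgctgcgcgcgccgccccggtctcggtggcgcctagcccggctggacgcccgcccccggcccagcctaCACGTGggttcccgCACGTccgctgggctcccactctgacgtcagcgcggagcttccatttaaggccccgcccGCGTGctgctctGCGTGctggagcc
Gpi1 and Tpi1, the only members with no match in any promoter, had 0 matches in these windows, and this Aldoa promoter had 1 match to ACGTG. A second Aldoa promoter held that same match and the third had 0, so the members higher in tubule did not share a motif count. Hk2 had 2 matches, both to ACGTG, and this Ldha promoter had 7, of which 5 were to ACGTG, with 2 copies of CACGTG, and 2 to GCGTG. This was the highest number among the 16 promoters, so the printed sequences do not stand for all members lower in tubule. The downstream Ldha promoter had 2 matches, both to GCGTG, the Pkm promoters had 0 and 2, Pfkl had 1 and each Eno1 promoter had 2. Over all members, 12 of 16 promoters held either motif, against 43.8% of 32851 promoters in the table, and 8 of 10 members held it in at least 1 promoter, against 46.7% of all genes. A match is a run of letters and not a measured site, and these data hold no binding measurement.

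The members did not share a single pattern across lineages. Among the progenitor, early nephron, tubule and stroma gates and other cells of the wildtype libraries, Pfkl and Ldha were highest in the progenitor gate in both libraries, Gpi1, Aldoa, Tpi1 and Pgk1 were highest in the tubule gate in both, and Gapdh was highest in early nephron in both. Of these 5, stroma had the lowest level of Gapdh, Pgk1 and Eno1 in both wildtype libraries. The summed level of the 10 genes was 2966 CPM in mutant 2 and 2611 and 3697 CPM in the wildtype libraries in the progenitor gate. It was 1922 and 2161 CPM in mutant and 2428 and 3324 CPM in wildtype early nephron cells, and 2664 and 2515 against 2400 and 3516 CPM in tubule cells. Of these gates stroma had the lowest sums, 1520 and 1524 CPM in mutant and 2122 and 3068 CPM in wildtype libraries. Wildtype 2 exceeded wildtype 1 in each of these gates, so gates were compared within libraries.

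**Figure D1:**
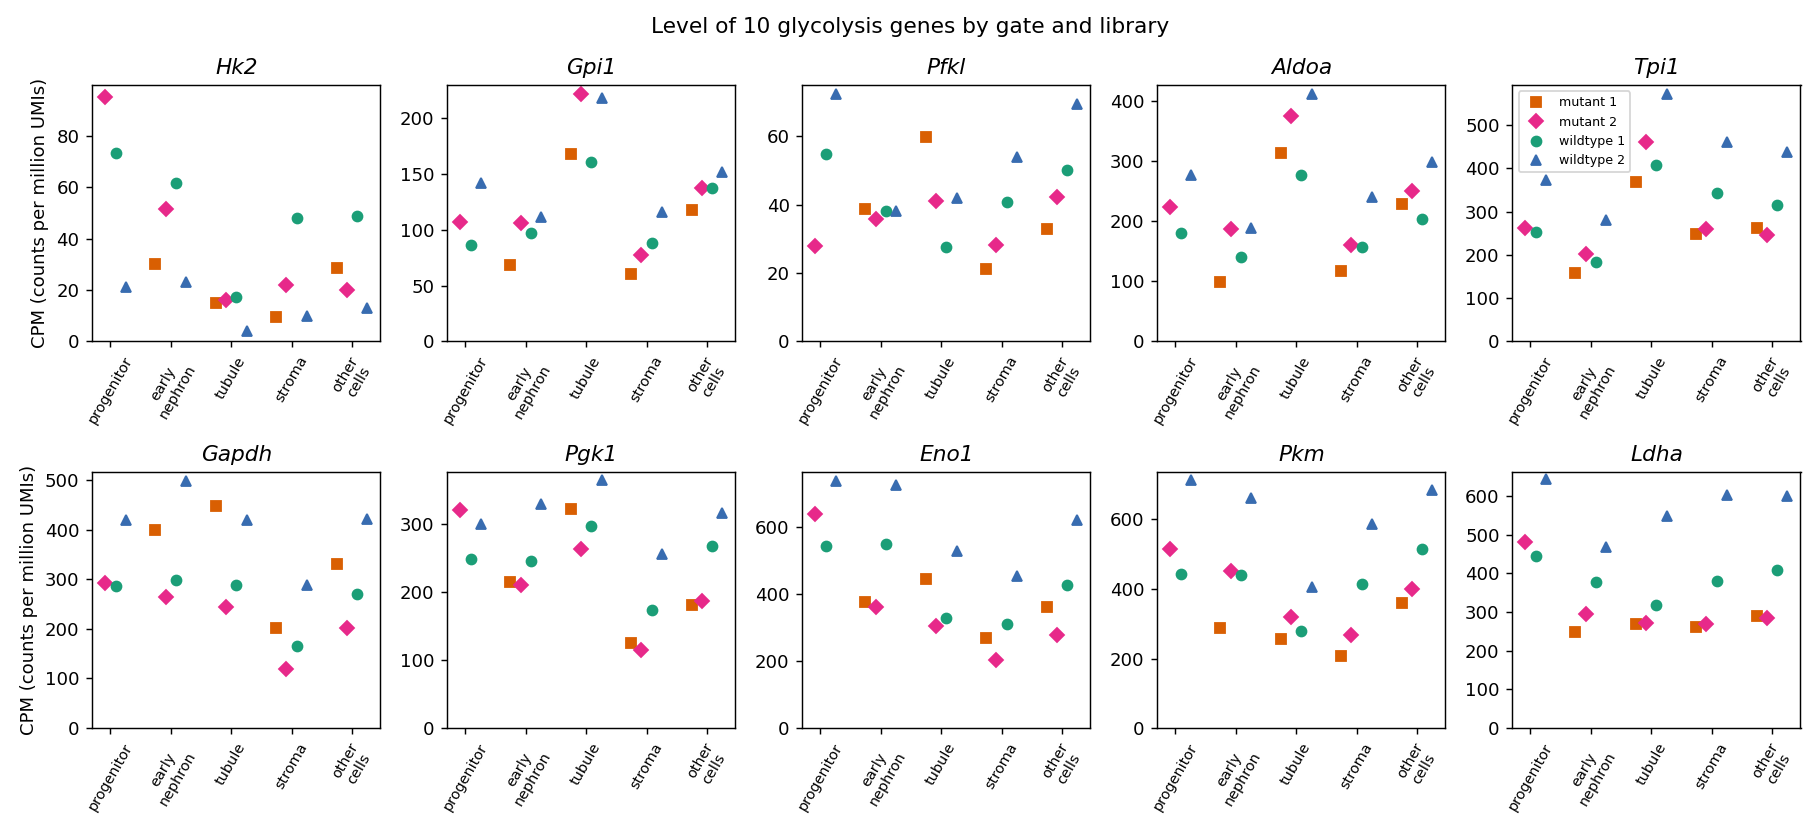
Level of each of the 10 genes in CPM (vertical axes, linear, from 0) in 5 gates (horizontal axes), 1 point per library, with mutant libraries as squares and diamonds and wildtype libraries as circles and triangles. The progenitor gate has no mutant 1 point because it held 1 cell, and in stroma and in other cells wildtype 2 is the highest library for every member other than Hk2.

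The early steps of the pathway did not move together between tubule and progenitor cells. Hk2, a hexokinase isoform, had 14.9 and 15.9 CPM in mutant and 17.3 and 3.85 CPM in wildtype tubule cells. In progenitor cells it had 95.3 CPM in mutant 2 and 73.2 and 21.2 CPM in wildtype libraries. It was lower in the tubule in all 3 libraries that had both gates, although its counts there were few (4 and 26 in mutant, 15 and 6 in wildtype). Hk1, another hexokinase outside the set, had 14.9 and 26.3 CPM in mutant and 31.2 and 17.3 CPM in wildtype tubule cells. Its progenitor levels were 11.2 CPM in mutant 2 and 21.3 and 15.7 CPM in wildtype libraries, lower than in tubule in all 3 libraries. Gpi1, which converts glucose 6-phosphate to fructose 6-phosphate, had 168 and 222 CPM in mutant and 161 and 218 CPM in wildtype tubule cells, against 107 CPM in mutant 2 and 86.6 and 142 CPM in wildtype progenitor cells. It was higher in the tubule in all 3 libraries. Pfkl, the liver-type phosphofructokinase, had 59.7 and 41.0 CPM in mutant and 27.7 and 41.8 CPM in wildtype tubule cells, against 28.0 CPM in mutant 2 and 54.9 and 72.4 CPM in wildtype progenitor cells. The libraries disagreed on Pfkl, with mutant 2 higher in tubule on 5 progenitor counts and both wildtype libraries lower.

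Aldoa and Tpi1, which split the fructose and interconvert the resulting triose phosphates, were both higher in the tubule. Aldoa had 313 and 375 CPM in mutant and 277 and 411 CPM in wildtype tubule cells, against 224 CPM in mutant 2 and 180 and 276 CPM in wildtype progenitor cells. Tpi1 had 369 and 460 CPM in mutant and 407 and 572 CPM in wildtype tubule cells, against 263 CPM in mutant 2 and 253 and 373 CPM in wildtype progenitor cells. Every library with both gates was higher in tubule for both genes. Gapdh, the oxidative step, had 448 and 244 CPM in mutant and 289 and 420 CPM in wildtype tubule cells, against 292 CPM in mutant 2 and 287 and 419 CPM in wildtype progenitor cells. Pgk1, the first step that yields ATP, had 321 and 263 CPM in mutant and 297 and 364 CPM in wildtype tubule cells, against 320 CPM in mutant 2 and 248 and 299 CPM in wildtype progenitor cells. For both of these genes the 2 gates overlapped across libraries. Wildtype Pgk1 lay below progenitor cells in proximal cells (231 and 265 CPM) and above them in loop and distal cells (357 and 428 CPM). In mutant 2 it was 167 and 318 CPM in those segments, both below its 320 CPM in progenitor cells. Proximal Aldoa in mutant 2, at 180 CPM, was also below its progenitor value.

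The last steps were lower in the joint tubule gate. Eno1, the enolase, had 444 and 305 CPM in mutant and 329 and 529 CPM in wildtype tubule cells, against 639 CPM in mutant 2 and 542 and 738 CPM in wildtype progenitor cells. Pkm, the pyruvate kinase of growing tissues, had 257 and 319 CPM in mutant and 278 and 407 CPM in wildtype tubule cells, against 516 CPM in mutant 2 and 442 and 712 CPM in wildtype progenitor cells. Ldha, which reduces pyruvate to lactate, had 269 and 271 CPM in mutant and 317 and 549 CPM in wildtype tubule cells, against 482 CPM in mutant 2 and 444 and 643 CPM in wildtype progenitor cells. Each of these 3 was lower in the tubule in all 3 libraries with both gates. The gates did not overlap for Eno1 and Pkm, and the tubule value of wildtype 2 exceeded 2 of the progenitor values for Ldha. Proximal tubule cells alone had 402 CPM of Ldha in mutant 2 and 443 and 719 CPM in wildtype libraries. Set against progenitor cells of the same library, proximal Ldha was lower in mutant 2, nearly equal in wildtype 1 and higher in wildtype 2.

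In the quasi-likelihood test of edgeR, adjusted by Benjamini-Hochberg and with library as block, 3 of the 10 members were higher and 5 lower in tubule than in progenitor cells at an adjusted p below 0.05, where 32.9% of 12464 genes were called (16.5% higher and 16.3% lower). Gpi1 rose by 0.77 on the log2 scale (SE 0.12, adjusted p = 8.2e-06), Tpi1 by 0.66 (SE 0.09, adjusted p = 1.26e-06) and Aldoa by 0.59 (SE 0.10, adjusted p = 2.91e-05). Hk2 had the largest difference among the members, at -2.04 (SE 0.30, adjusted p = 4.77e-06). Pkm (-0.71), Eno1 (-0.66), Pfkl (-0.56) and Ldha (-0.49) were also lower, with adjusted p from 7.15e-05 to 0.0432. Gapdh (-0.04, adjusted p = 0.918) and Pgk1 (0.21, adjusted p = 0.244) did not pass. Pfkl lost its call in DESeq2 (-0.44) and without wildtype 1 (-0.35) or wildtype 2 (-0.29). Pgk1 passed at a gate of 5 UMIs (0.31), a gate ratio of 3 (0.36) and in wildtype libraries only (0.21).

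**Figure D2:**
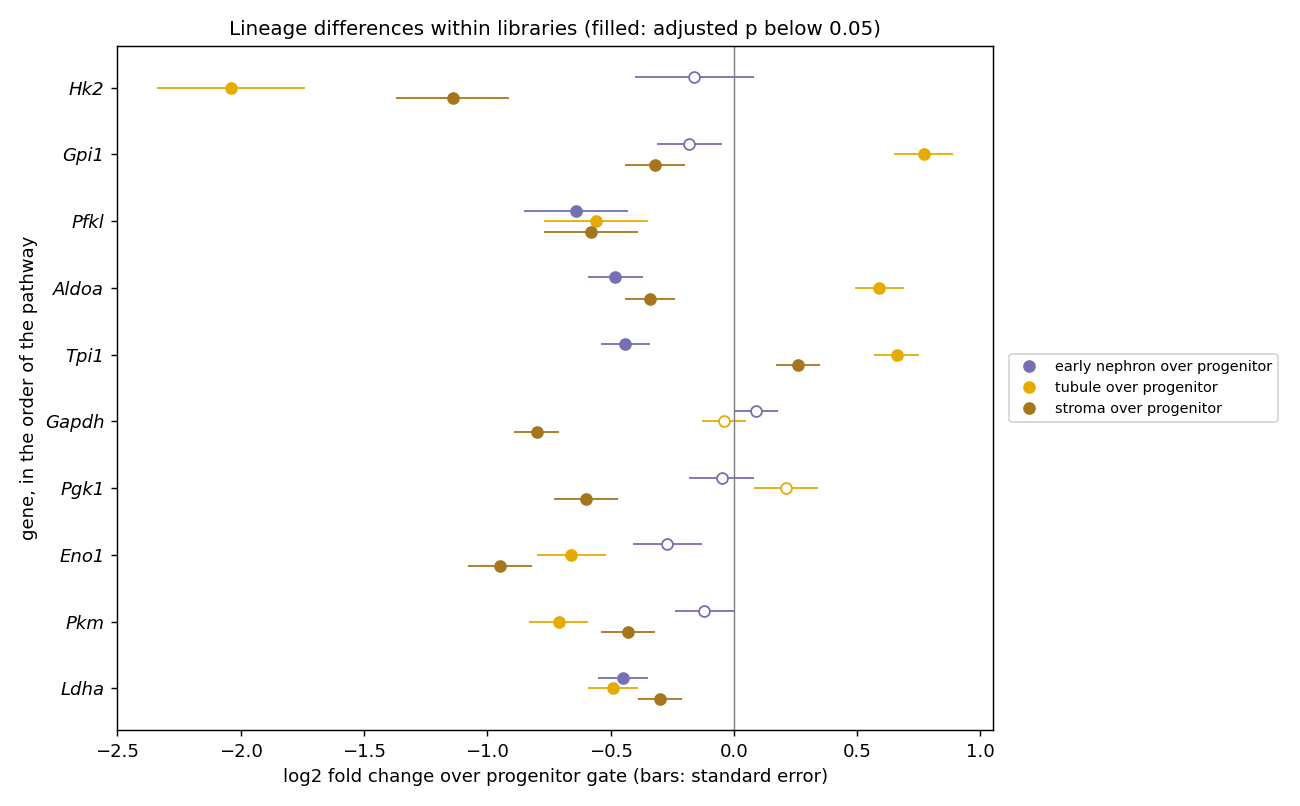
Log2 fold change of each gene over the progenitor gate (horizontal axis, bars are standard errors) with genes in pathway order from top to bottom, for early nephron, tubule and stroma sums with library as block. Filled points have an adjusted p below 0.05. In tubule Gpi1, Aldoa and Tpi1 lie right of 0 and Hk2, Pfkl, Eno1, Pkm and Ldha left of it, and in stroma only Tpi1 lies right of 0.

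Between early nephron and progenitor cells, 4 members fell and none rose, where 13.2% of genes were called (6.95% higher and 6.24% lower). Early nephron cells had 249 and 294 CPM of Ldha in mutant and 377 and 468 CPM in wildtype libraries, lower than in progenitors by -0.45 on the log2 scale (SE 0.10, adjusted p = 0.00127 in edgeR). Aldoa was at 98.7 and 187 CPM in mutant and 140 and 189 CPM in wildtype early nephron cells, a difference of -0.48 (SE 0.11), and Tpi1 at 159 and 201 CPM in mutant and 183 and 280 CPM in wildtype early nephron cells, a difference of -0.44 (SE 0.10). All 3 were lower in 3 of 3 libraries. Pfkl stood at 38.6 and 35.7 CPM in mutant and 38.2 and 38.2 CPM in wildtype early nephron cells (-0.64, SE 0.21, adjusted p = 0.0432 in edgeR). Without wildtype 1 the values were -0.46 for Aldoa, -0.40 for Tpi1 and -0.60 for Pfkl, and without wildtype 2 they were -0.37, -0.39 and -0.35, and none of these passed; Pfkl also lost its call in DESeq2 (-0.57), at a gate of 2 UMIs (-0.61) and at a gate ratio of 3 (-0.58).

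Aldoa and Tpi1 therefore had their lowest nephron levels in early nephron cells and their highest in the tubule. Set directly against early nephron cells, with all 4 libraries, the tubule had higher Tpi1 (log2 fold change 1.10, SE 0.09), Aldoa (1.07, SE 0.10) and Gpi1 (0.94, SE 0.12), each higher in 4 of 4 libraries, with adjusted p of at most 2.57e-07 in edgeR. Hk2 (-1.89, SE 0.29) and Pkm (-0.59, SE 0.11) were lower in 4 of 4 libraries and Eno1 (-0.40, SE 0.13) in 3 of 4, and all 3 passed. Of all genes, 27.7% were called in this comparison (14.3% higher and 13.4% lower). Ldha differed by -0.04 (SE 0.09, adjusted p = 0.772) and Pfkl by 0.08 (SE 0.22, adjusted p = 0.831). Eno1 lost its call in DESeq2 (-0.33), without wildtype 1 (-0.23) and without wildtype 2 (-0.34), and Pgk1 (0.26) passed at a gate of 5 UMIs (0.25).

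Stroma cells had lower levels than progenitor cells for 9 members, and Tpi1 was higher (log2 fold change 0.26, SE 0.09, adjusted p = 0.0261 in edgeR), where 32% of all genes were called (17.3% higher and 14.7% lower). Hk2 (-1.14, SE 0.23), Eno1 (-0.95, SE 0.13) and Gapdh (-0.80, SE 0.09) differed most. Tpi1 was higher in 2 of 3 libraries, Pfkl and Gpi1 were lower in 2 of 3, and the other 7 were lower in 3 of 3. Gapdh had 201 and 120 CPM in mutant and 166 and 288 CPM in wildtype stroma, below the progenitor value of each of the 3 libraries that had both gates. Eno1 had 268 and 203 CPM in mutant and 311 and 454 CPM in wildtype stroma, also below in 3 of 3. The calls of Tpi1 (0.21 and 0.28), Pfkl (-0.57 and -0.57) and Aldoa (-0.36 and -0.35) were lost without wildtype 1 and without wildtype 2, that of Gpi1 (-0.32) without wildtype 2 (-0.17) and without mutant 2 (-0.28), and that of Ldha (-0.30) without wildtype 1 (-0.33) and without mutant 2 (-0.22). DESeq2 did not call Gpi1 (-0.29) or Pfkl (-0.55), Tpi1 was also lost with no low-count filter (0.27), with no doublet step (0.22) and at a gate of 5 UMIs (0.21), and Gpi1 with no low-count filter (-0.31), no mitochondrial limit (-0.29), a gate ratio of 3 (-0.32) and wildtype libraries only (-0.24).

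The tubule gate joined segments that differed from each other. Proximal tubule cells, which resorb most of the filtrate, were compared with loop and distal tubule cells. Proximal cells numbered 80 in mutant 2 and 53 and 97 in wildtype libraries (mutant 1 had 11 and was not used), against 32 and 185 mutant and 80 and 105 wildtype loop and distal cells. Ldha was higher in proximal cells, at 402 CPM in mutant 2 and 443 and 719 CPM in wildtype libraries, against 255 and 214 CPM in mutant and 241 and 426 CPM in wildtype loop and distal cells (log2 fold change 0.83, SE 0.14, adjusted p = 1.62e-06 in edgeR). Pkm was lower, at 200 CPM in mutant 2 and 119 and 226 CPM in wildtype proximal cells, against 270 and 377 CPM in mutant and 379 and 527 CPM in wildtype loop and distal cells (-1.19, SE 0.16, adjusted p = 3.34e-09 in edgeR). The 2 segments did not overlap for Pkm.

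Aldoa (-0.77, SE 0.14), Gpi1 (-0.76, SE 0.15), Pgk1 (-0.75, SE 0.14) and Eno1 (-0.42, SE 0.15) were lower in proximal than in loop and distal cells as well, so 1 member was higher and 5 were lower, where 7.87% of 12663 genes were called higher and 6.62% lower. All of these differences had the same sign in 3 of 3 libraries. Tpi1 differed by 0.00 (SE 0.13) and Gapdh by -0.17 (SE 0.15), and neither passed. The call of Eno1 was lost without each of the 4 libraries (-0.45 to -0.34), in DESeq2 (-0.39), without the mitochondrial limit (-0.37), at a gate of 2 UMIs (-0.37) and in wildtype libraries only (-0.30), where Aldoa (-0.39) also lost its call. In the ureteric bud, the branching epithelium that forms the collecting ducts, the summed level reached 2429 and 3319 CPM in mutant and 3515 and 5069 CPM in wildtype libraries, above the progenitor, early nephron, tubule and stroma sums of the same library in mutant 2 and both wildtype libraries. In mutant 1 the tubule sum of 2664 CPM was higher. A contrast of ureteric bud over progenitor, added after the data were seen, gave higher Tpi1 (0.78, SE 0.13), Aldoa (0.54, SE 0.12), Gpi1 (0.47, SE 0.12) and Pkm (0.39, SE 0.13) and no lower member, where 25.6% of genes were called (13.7% higher and 11.9% lower). Gpi1 lost its call without wildtype 1 (0.38), and Pkm without wildtype 1 (0.26) or wildtype 2 (0.45). Pfkl (0.55) passed without mutant 1 (0.61) and in wildtype libraries only (0.59), and Pgk1 (0.25) passed without mutant 2 (0.34), in wildtype libraries only (0.39) and at a gate of 5 UMIs (0.31).

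Isoenzymes of the members, and enzymes of other steps such as Pgam1, were read from a separate list. Of its 16 genes, 10 were tested between tubule and progenitor cells, and 5 were higher and 2 lower. Of all genes, 16.5% were called higher and 16.3% lower, so the lower count lay near that share. Ldhb, the heart-type subunit of lactate dehydrogenase, had 787 and 652 CPM in mutant and 761 and 891 CPM in wildtype tubule cells, against 224 CPM in mutant 2 and 105 and 163 CPM in wildtype progenitor cells (2.45, SE 0.20, adjusted p = 4.04e-07 in edgeR). Pfkp, the platelet-type phosphofructokinase, had 22.4 and 50.8 CPM in mutant and 43.9 and 33.4 CPM in wildtype tubule cells, against 0 CPM in mutant 2 and 1.98 and 2.96 CPM in wildtype progenitor cells (3.80, SE 0.35). Eno3, the muscle-type enolase, was lower in tubule (-2.30, SE 0.32), at 11.2 and 13.5 CPM in mutant and 18.5 and 8.35 CPM in wildtype libraries, against 11.2 CPM in mutant 2 and 77.7 and 64.5 CPM in wildtype progenitor cells. Mutant 2 alone did not show that Eno3 difference, and its 11.2 CPM rests on few counts in a progenitor sum of 178371 UMIs. The cause of this disagreement was not tested.

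**Figure D3:**
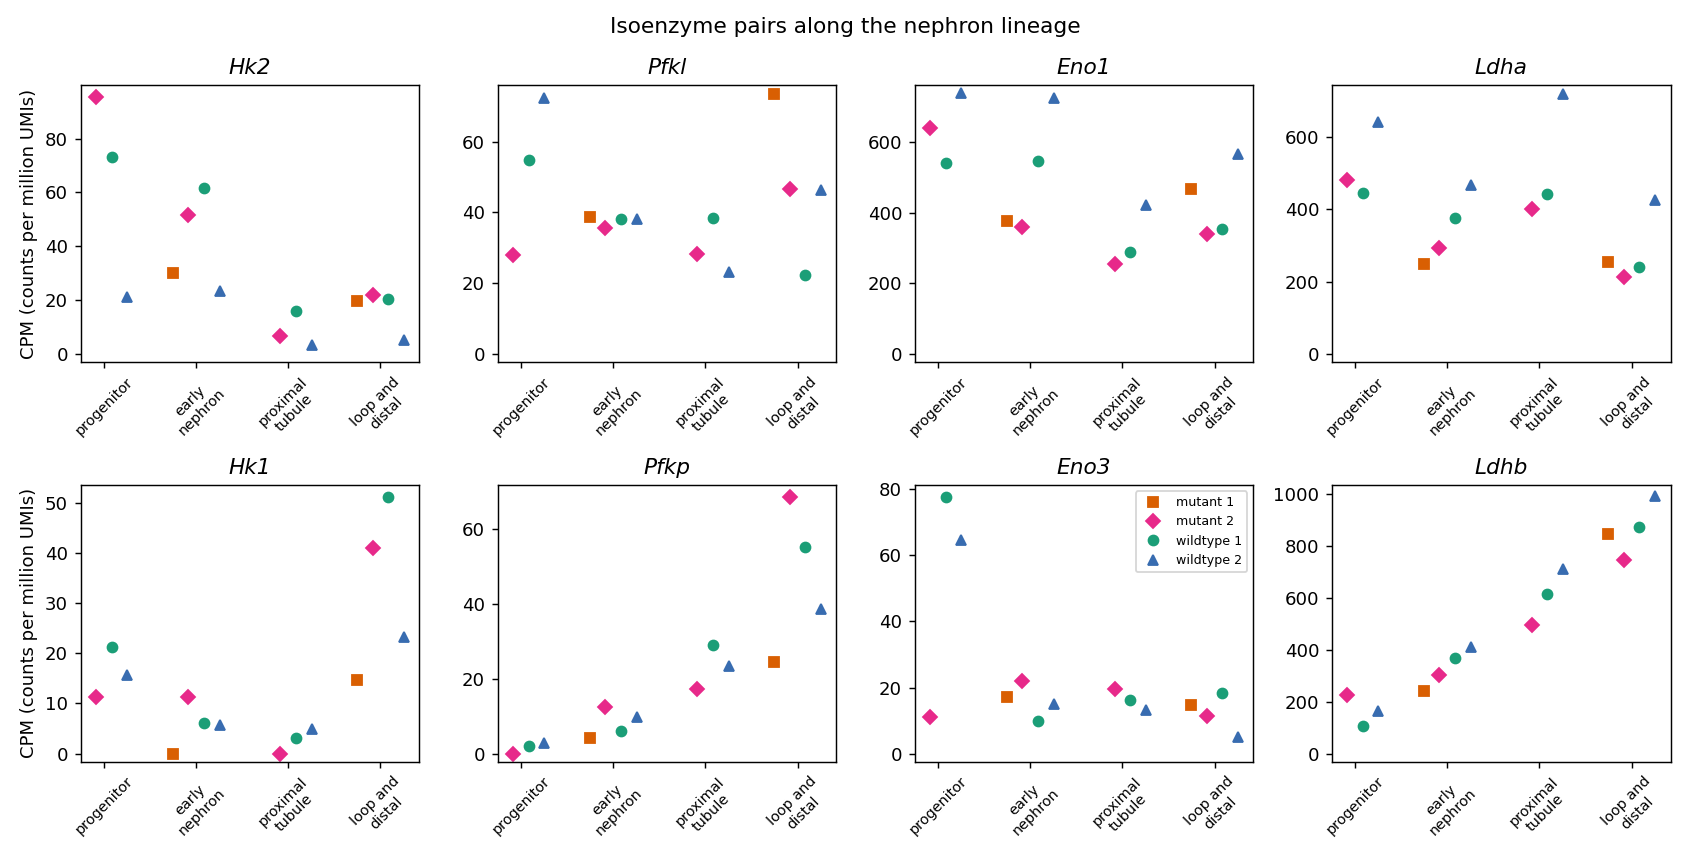
CPM (vertical axes, linear) of 4 members in the top row and of an isoenzyme of the same step below each, along progenitor, early nephron, proximal tubule and loop and distal tubule gates, 1 point per library. Eno3 lies at 11.2 CPM in progenitor cells of mutant 2 and at 77.7 and 64.5 CPM in those of the wildtype libraries, and Ldhb and Pfkp are lowest in progenitor cells of the libraries that have them.

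Neighbouring pathways were taken from 6 further lists. In tubule over progenitor cells, 16 of 20 respiratory chain and ATP synthase genes and 12 of 20 genes of pyruvate oxidation and the citrate cycle were higher and none of either list was lower, against 16.5% of all genes called higher. Mpc2, a subunit of the mitochondrial pyruvate carrier, had 437 and 413 CPM in mutant and 477 and 559 CPM in wildtype tubule cells, against 95.3 CPM in mutant 2 and 78.2 and 101 CPM in wildtype progenitor cells (2.36, SE 0.10, adjusted p = 1.98e-17 in edgeR). Their medians were 0.34 and 0.40, against -0.06 over all genes and -0.26 over the members. In stroma over progenitor cells, 8 respiratory genes and 7 citrate cycle genes were lower, and 0 and 1 were higher, against 14.7% of all genes called lower and 17.3% higher. Between early nephron and progenitor cells, 2 respiratory genes were higher and 2 lower, and 1 citrate cycle gene passed each way, against 6.95% of all genes called higher and 6.24% lower.

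Of 5 gluconeogenesis genes tested, 3 were higher in tubule than in progenitor cells and none lower. Fbp2, a fructose bisphosphatase, had 11.2 and 8.57 CPM in mutant and 28.9 and 26.3 CPM in wildtype tubule cells and 0 counts in progenitor cells. Over all tubule sums together it was at least 48.7-fold higher, against a floor of 3 counts over the progenitor sums, or 0.394 CPM. Pck1, the step that makes phosphoenolpyruvate, had 19.6 CPM in mutant 2 and 25.7 and 21.6 CPM in wildtype proximal cells. Fbp1, another fructose bisphosphatase, had 17.4 CPM in mutant 2 and 32.1 and 26.6 CPM in wildtype proximal cells. Among regulators and transporters 2 of 11 tested were higher and 2 lower, near the 16.5% and 16.3% of all genes. The lower ones were the monocarboxylate transporters Slc16a3 (-2.58, SE 0.37) and Slc16a1 (-2.14, SE 0.26), which carry lactate. Slc16a1 had 11.2 and 17.1 CPM in mutant and 17.3 and 9.64 CPM in wildtype tubule cells, against 129 CPM in mutant 2 and 66.3 and 42.7 CPM in wildtype progenitor cells. Slc16a3 had 7.46 and 3.06 CPM in mutant and 4.62 and 3.85 CPM in wildtype tubule cells, against 0 CPM in mutant 2 and 26.7 and 33.4 CPM in wildtype progenitor cells. It was lower in 2 of 3 libraries and higher in mutant 2, whose progenitor sum held 28 cells and 178371 UMIs. The cause of this disagreement was not tested. Of 15 hypoxia targets outside glycolysis, 3 were higher, with Bnip3, a mitophagy receptor, at 1.48 (SE 0.21), and 2 were lower, also near the shares of all genes. Of the 7 pentose phosphate genes, Rpe (0.93) and Taldo1 (0.66) were higher and Rpia (-0.83) was lower.

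Between genotypes, no member passed the test in any gate. Both mutant libraries lay below both wildtype libraries for 6 members over all cells (13.4% of all genes), 7 in stroma (16.2%) and 7 in other cells (12.4%), 3 in early nephron (12.9%) and 1 in tubule (14.7%). Over all cells, Ldha stood at 271 and 280 CPM in mutant and 399 and 597 CPM in wildtype libraries. Pkm had 273 and 341 CPM in mutant and 447 and 653 CPM in wildtype libraries, and Eno1 had 327 and 260 CPM in mutant and 430 and 622 CPM in wildtype libraries. For these 3 genes both mutant libraries lay below both wildtype libraries, but the wildtype libraries differed from each other by more than wildtype 1 differed from the nearer mutant library. Pgk1 had 169 and 166 CPM in mutant and 244 and 306 CPM in wildtype libraries, Pfkl 30 and 35.2 against 45.9 and 62.8 CPM, and Tpi1 256 and 268 against 303 and 422 CPM. These 6 members did not overlap between genotypes, where 13.4% of 15776 genes had both mutant libraries below both wildtype libraries. Gapdh (284 and 177 against 257 and 404 CPM), Aldoa (173 and 216 against 190 and 282 CPM), Gpi1 (91.0 and 116 against 114 and 145 CPM) and Hk2 (18.4 and 24.4 against 52.2 and 14.6 CPM) overlapped. Hk2 went against the rest: wildtype 2, the highest library for the other 9 members, was its lowest.

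In the quasi-likelihood test of edgeR, adjusted by Benjamini-Hochberg, the log2 fold changes of mutant over wildtype for all cells ran from -1.0 (SE 0.36, adjusted p = 0.275) for Ldha to -0.43 (SE 0.34, adjusted p = 0.762) for Aldoa. All 10 were below 0, with a median of -0.78 against 0.01 over all genes tested. No member passed, where 188 of 15776 genes were called (1.19%), and DESeq2 called no member either. At an unadjusted p below 0.05, Ldha, Eno1, Pkm, Pgk1 and Pfkl would have been counted, 5 of 10, against 9.49% of all genes. Without wildtype 2 the median of the members was -0.54, and without wildtype 1 it was -1.08. Malat1 and the share of barcodes left out for mitochondrial counts, given above, were higher in both mutant libraries. In the kept cells the median mitochondrial share was 2.59% and 4.62% in mutant and 3.23% and 3.07% in wildtype libraries. The part of these measures in the lower values was not tested. The progenitor share also differed, and the levels over all cells cannot be told apart from that difference in makeup.

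Within gates the same genes were read again. In stroma, Pkm had 208 and 269 CPM in mutant and 415 and 587 CPM in wildtype libraries (log2 fold change -1.08, SE 0.38, adjusted p = 0.512 in edgeR). Ldha had 262 and 269 CPM in mutant and 380 and 603 CPM in wildtype stroma, and Pgk1 had 125 and 114 against 174 and 256 CPM. None of these libraries overlapped between genotypes. In all, 7 members did not overlap in stroma, where 16.2% of 11781 genes had both mutant libraries below both wildtype libraries. The members' median was -0.71, against 0.01 over all genes, and none passed, where 0.11% of genes were called. By unadjusted p, 4 members and 745 genes fell below 0.05, and DESeq2 called 46 genes and no member. The stromal gate, of 403 and 2083 mutant and 525 and 1073 wildtype cells, differed in makeup. Cells with Lum, Dcn or Postn and none of Foxd1, Ntn1 or Crabp1 numbered 164 and 932 against 146 and 272. Cells with the reverse numbered 40 and 167 against 150 and 308. Of the check markers, Col1a2, a collagen chain, stood at 5894 and 5426 CPM in mutant and 3340 and 1057 CPM in wildtype libraries. Col6a1 had 119 and 249 against 89 and 76.9 CPM. Pdgfrb, at 41 and 90.8 against 103 and 50.4 CPM, overlapped. In stromal cells with a UMI of Foxd1, Ntn1 or Crabp1 and none of Lum, Dcn or Postn the members' median was -0.84. In those with the opposite choice, an alternative added after the data were seen, it was -0.28 over the 9 members tested. Malat1 in the stroma gate was 4563 and 7098 CPM in mutant and 2870 and 2092 CPM in wildtype libraries, and its part was not tested.

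**Figure D4:**
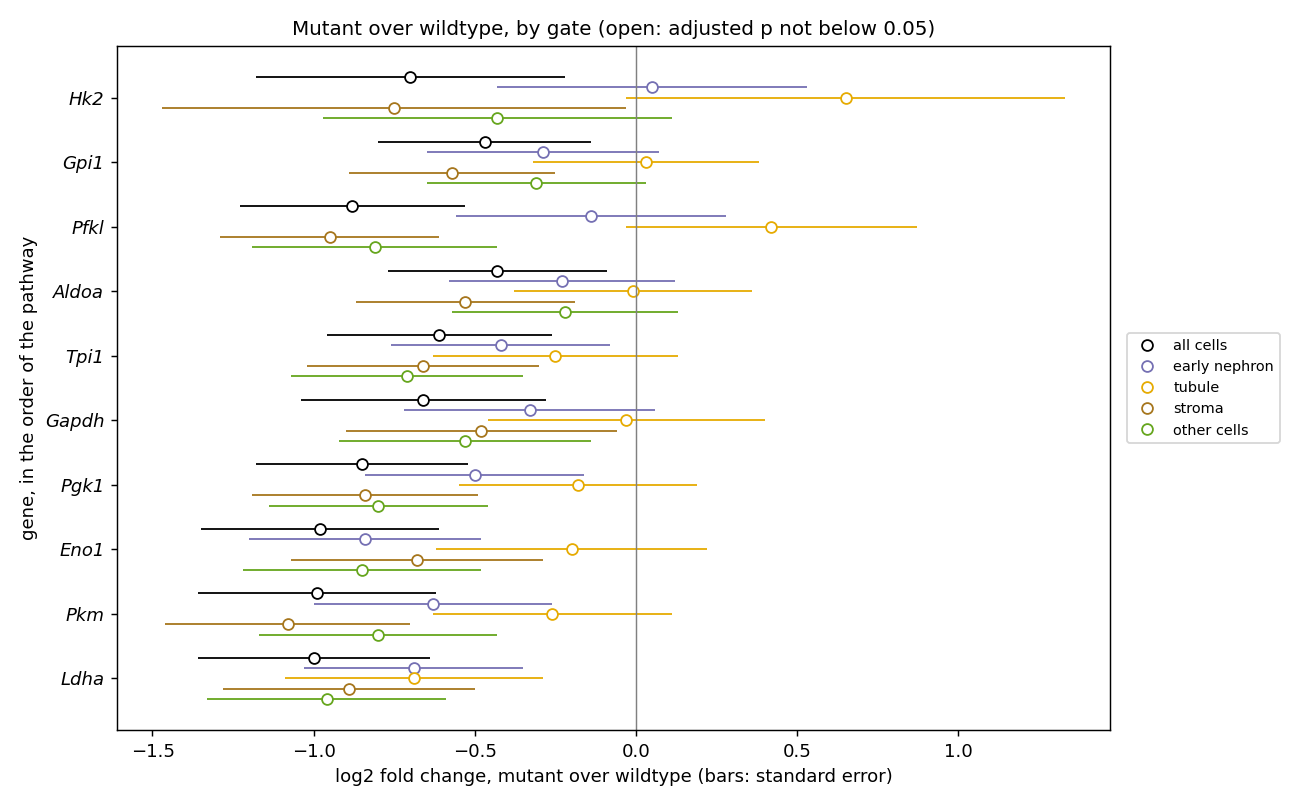
Log2 fold change of mutant over wildtype (horizontal axis, bars are standard errors) for the 10 genes in pathway order, over all cells and in 4 gates, 2 libraries per genotype. No point has an adjusted p below 0.05, and the stroma and other cell values of all 10 genes lie left of 0, whereas tubule values lie on both sides.

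Other cells gave a median of -0.75 with 7 members not overlapping, where 12.4% of 13519 genes had both mutant libraries lower and 0.34% were called, none of them a member. There 5 members and 948 genes had an unadjusted p below 0.05, and DESeq2 called 48 genes and no member. In early nephron cells the median was -0.37 and 3 members, Pgk1, Eno1 and Ldha, did not overlap, where 12.9% of 9547 genes did so. No gene at all was called there by edgeR or DESeq2, and 435 genes, among them Eno1, had an unadjusted p below 0.05. Early nephron Eno1 was 377 and 361 CPM in mutant and 548 and 724 CPM in wildtype libraries (-0.84, SE 0.36). In the tubule the median was -0.11, and Ldha alone did not overlap, where 14.7% of 9794 genes did so and 0.153% were called, none of them a member. No member and 472 genes had an unadjusted p below 0.05 in edgeR, and DESeq2 called 20 genes and no member. Tubule Pkm was 257 and 319 CPM in mutant and 278 and 407 CPM in wildtype libraries (-0.26, SE 0.37), which overlapped. In loop and distal cells alone Pkm was 270 and 377 against 379 and 527 CPM and did not overlap. Ldha there was 255 and 214 against 241 and 426 CPM, which overlapped. Proximal cells numbered 11 and 80 in mutant and 53 and 97 in wildtype libraries. Loop and distal cells numbered 32 and 185 against 80 and 105, so the joint gate differed in makeup. The part of this makeup was not tested. Without wildtype 2 the medians were -0.44 in other cells, -0.19 in early nephron, -0.41 in stroma and 0.17 in tubule, and without mutant 2 the tubule median was 0.04, so its sign depended on either library.

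The progenitor gate could not be compared with 2 mutant libraries. Mutant 2 alone, with 28 cells, set against both wildtype libraries gave a median of -0.38 over the members (range -1.42 to 0.83, 9 below 0), against -0.10 over all genes, and none passed edgeR's test (lowest adjusted p = 0.58), where 0.455% of 11207 genes were called and 1 member, Pfkl, and 958 genes had an unadjusted p below 0.05. This fit had 1 residual degree of freedom and assumes that mutant libraries vary as the wildtype ones do. In the progenitor sum of mutant 2, Eno1, Pgk1 and Pkm, named again in the interactions below, had 639, 320 and 516 CPM. The wildtype libraries had 542 and 738, 248 and 299, and 442 and 712 CPM. In CPM, mutant 2 lay above both wildtype libraries for Pgk1 and for Hk2 (95.3 against 73.2 and 21.2). It lay below both for Pfkl (28.0 against 54.9 and 72.4) and between them for the rest. The count of 9 members below 0 comes from the fit, which uses TMM scaling, and does not match these CPM levels. Some check markers of other gates stood higher in this sum than in wildtype progenitor cells. Wfdc2 had 247 CPM against 56.4 and 44.5, Dpp4 44.9 against 5.44 and 6.1, and Cdh4 78.5 against 32.2 and 34.7. Others, such as Mal (0 against 0.99 and 0.924 CPM), did not. The part of RNA from other lineages in this sum was not tested.

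The difference between gates in the genotype effect was tested as an interaction with library as block. Pkm passed between tubule and stroma, with an effect 0.72 higher in tubule on the log2 scale (SE 0.14, adjusted p = 0.00137 in edgeR), where 0.59% of 14231 genes were called. All 10 members had an effect above that of stroma in the tubule, with a median of 0.45, against -0.03 over all genes. The call of Pkm was lost without wildtype 1 (0.67), wildtype 2 (0.76) or mutant 2 (0.72). The tubule and stroma gates each differed in makeup between genotypes, and the part of this in the interaction was not tested. Between progenitor and stroma, Pgk1 (0.94, SE 0.23, adjusted p = 0.031) and Eno1 (0.70, SE 0.18, adjusted p = 0.0347) passed in edgeR, where 0.731% of genes were called, on the progenitor cells of mutant 2 alone. The median of all genes was -0.29 in this contrast. Both calls were lost without wildtype 1 (0.98 and 0.67), without wildtype 2 (0.72 and 0.59) and with no low-count filter (0.70 and 0.47), that of Eno1 also at a gate of 2 UMIs (0.66), and Pkm (0.58) was called by DESeq2 (0.69). No member passed between early nephron and stroma, where 0.344% of genes were called. At an unadjusted p below 0.05 there were 4 members between early nephron and stroma (5.73% of all genes), 9 between tubule and stroma (7.54%) and 5 between progenitor and stroma (8.42%). Between early nephron and stroma Pkm (0.48) passed without mutant 1 (0.52), and DESeq2 called 15 genes and no member.

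Among the other lists, Eno3 alone passed between genotypes over all cells, at 7.42 and 9.55 CPM in mutant and 27.6 and 26.0 CPM in wildtype libraries (log2 fold change -1.77, SE 0.38, adjusted p = 0.0132 in edgeR). Both mutant libraries also lay below both wildtype libraries in stroma, at 5.46 and 4.93 against 5.79 and 7.01 CPM, and in other cells, at 6.2 and 10.5 against 16.4 and 17.4 CPM, and above them in early nephron, at 17.2 and 22.1 against 9.85 and 15.0 CPM. In progenitor cells Eno3 had 11.2 CPM in mutant 2, on few counts, and 77.7 and 64.5 CPM in wildtype libraries. The progenitor cells, which had its highest wildtype level, were few in both mutant libraries, so its change over all cells cannot be told apart from their smaller number. Slc16a3 (-1.37, SE 0.39, adjusted p = 0.0942) and Slc16a1 (-0.78, SE 0.36, adjusted p = 0.486) did not pass in edgeR. All 20 citrate cycle genes and 19 of 20 respiratory genes had values below 0 over all cells, with medians of -0.34 and -0.42, and none passed. Hypoxia targets outside glycolysis were divided evenly, 8 above and 8 below 0 with a median of -0.09. Within stroma, 12 of 15 of them were below 0, in a range from -1.68 to 0.48, and none passed. Those with the smallest p there were Ankrd37 (-1.50, SE 0.42) and Bnip3 (-0.97, SE 0.35).

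Likeness to the members was measured across the 19 sums of 5 gates and 4 libraries, which share libraries and depth, as log2(CPM + 1) centred within each library and scaled per gene. Pgk1 followed the mean of all 10 members, itself included, most closely (Pearson r 0.85), then Gapdh (0.80) and Eno1 (0.78), whereas Tpi1 (0.22) and Hk2 (0.41) followed it least. The genes outside the set closest to the members' mean were Tomm7, Timm13 and Knop1 (each 0.88), Psmg1 (0.87), Sltm and Mrpl24 (each 0.85) and 2610507B11Rik and 0610009D07Rik (each 0.84), out of 3410 genes of at least 50 CPM. Tomm7 and Timm13 belong to the import machinery of mitochondria, Psmg1 helps to assemble the proteasome and Mrpl24 is a mitochondrial ribosomal protein.

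Some members share sequence with gene copies that the tables count separately, and how the authors assigned reads between copies is not given in the sources used here. Gm5506, now named Eno1b, shares 0.847 of the 30-base words in the last 500 bases of Eno1 and was counted at 87.1% to 102% of the Eno1 level over the libraries and gates with all 4 libraries. Its differences followed those of Eno1, at -0.62 in tubule and -0.89 in stroma over progenitors and -0.90 between genotypes over all cells (adjusted p = 0.000698, 7.64e-06 and 0.375 in edgeR). Pgk1-rs7, with a share of 0.113, was counted at 78.1% to 94.5% of Pgk1, with a stroma difference of -0.61 and a progenitor minus stroma interaction of 1.09 (adjusted p = 0.0136 in edgeR), where Gm5506 had 0.59 and did not pass (adjusted p = 0.18). Of the Gapdh copies, Gm3839 was at 21.6% to 34.2% and Gm5069 at 5.6% to 23.7% of Gapdh. Over all cells Gm5069 was 20.5% and 6.22% in mutant and 10.2% and 11.8% in wildtype libraries, so the split of Gapdh reads differed between the mutant libraries. Levels of Eno1, Pgk1 and Gapdh are therefore uncertain in absolute terms.

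On mm10, with the GENCODE vM21 annotation, all 10 members are protein-coding. Gpi1, Aldoa and Ldha lie on chromosome 7, at 34201330 to 34230336, 126795234 to 126800751 and 46841475 to 46855627. Hk2, Tpi1 and Gapdh lie on chromosome 6, at 82725025 to 82774454, 124810586 to 124814296 and 125161715 to 125166467. Pfkl lies on chromosome 10 at 77986947 to 78010083, Pgk1 on the X chromosome at 106187100 to 106203699, Eno1 on chromosome 4 at 150236721 to 150248879 and Pkm on chromosome 9 at 59656368 to 59679375. Counting was per gene, so isoforms such as those of Pkm were not told apart.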

How the data were processed

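Drop-seq libraries of E14.5 kidneys, 2 mutant and 2 wildtype, were analysed from the tables the authors deposited, which hold raw counts per gene and cell barcode, whole numbers with no normalization. Bowtie2 2.2.7 and mm10 are named in the submitters' processing notes; the annotation, the strand setting and the collapsing of molecular identifiers are not given in the sources used here. Libraries totalled 3572346 and 21350698 counts in mutant and 9817486 and 24834658 counts in wildtype libraries.

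Barcodes with at least 500 genes and at most 10% mitochondrial counts were kept, and the 5% with the highest Scrublet score in each library were left out (620 barcodes, scanpy 1.11.5); the tool's own threshold marked 17. Of 15144 barcodes 11779 stayed, and 3 barcodes occurred in 2 libraries. Counts were summed per library and gate and tested across all genes by the robust quasi-likelihood method of edgeR 4.0.16 under R 4.3.3, after TMM scaling and filterByExpr, and p-values were adjusted by Benjamini-Hochberg (threshold 0.05). Genotype fits had no replicate block, and lineage and interaction fits had library as block (19 sums of 5 gates, finer gates for the tubule segments). CPM values are untransformed and without TMM. Log2 fold changes carry edgeR's prior count. Each edgeR SE is the absolute change divided by the square root of the test's F statistic, so it is approximate. Scripts were tested on simulated data.

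The members, marker lists, pathway lists and the rule for named genes (all members; of each other list up to 4 past the test with the largest change, or the 2 smallest p) were chosen with earlier results of these data known. Proximal and ureteric levels of isoenzymes, Col1a2 and Malat1 were added after their values were seen. Near-identical copies were found by shared 30-base words in the last 500 bases of GENCODE vM21 transcripts. Of 99 listed pathway genes, Tigar was not found in the tables under that name. Alternatives were DESeq2 1.42.0, no low-count filter, a replicate block or none, each library left out, other gates and cell filters, and wildtype libraries only. Some genes of the marker and pathway lists are counted in them but are not reported here by name.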

Additional observations from a re-analysis of the deposited data

Results flagged for a closer look

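A test of the difference itself singled out 3 values. The genotype effect on Pkm was 0.72 higher in tubule than in stroma on the log2 scale. The genotype effects on Pgk1 and Eno1 were 0.94 and 0.70 higher in progenitor cells than in stroma, with progenitor cells of 1 mutant library. Without wildtype 1 or wildtype 2 none of these passed, nor did Pkm without mutant 2 (0.72), and Gm5506, a near-identical copy of Eno1, had 0.59 in the same contrast as Eno1 and did not pass (adjusted p = 0.18 in edgeR). Their causes were not tested.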

How the results depend on the processing

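No called value of the 10 members turned round under any alternative run, and the values of other genes were not compared. Of the values of called members, 415 of 494 lineage comparisons and 17 of 27 interaction comparisons kept their call. No member was called between genotypes, and none became so in 619 comparisons under the alternatives, and 75 of 1166 values of members that had not passed changed sign. Without library as block, 0 members and 591 genes were called for early nephron over progenitor, 1 and 1860 for tubule over progenitor, 1 and 1783 for stroma over progenitor, 3 and 1220 for tubule over early nephron, 0 and 930 for proximal over loop and distal, and 0 and 1566 for ureteric bud over progenitor. With the replicate number as block, genotype calls came to 8 genes in early nephron, 25 in tubule and 83 in stroma, and no member passed; same-numbered libraries did not deviate together (correlations from -0.10 to 0.02, 2 pairs), so they share only a number. With no low-count filter they came to 14 genes in early nephron, 64 in tubule, 119 in stroma and 99 in other cells, and interactions with stroma to 241 genes and 0 members in progenitor and 153 genes in tubule. DESeq2 called 46 genes in stroma, and 15 and 53 in the early nephron and tubule interactions. Stroma calls were 36 with no doublet step, 23 with no mitochondrial limit, 5 in nephrogenic and 20 in fibroblast-type stroma, and a gate of 2 UMIs left 1 member in the progenitor interaction. The cause was not tested.

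Leaving out each library gave 265 to 403 genotype calls over all cells, 14 to 50 in early nephron, 33 to 106 in tubule, 106 to 146 in stroma and 8 to 208 in other cells, with 0 members throughout. Lineage calls ranged from 638 to 1645 genes and 1 to 4 members for early nephron, 2256 to 4190 genes for tubule, 2331 to 4157 genes and 6 to 10 members for stroma, and 1479 to 3331 genes and 2 to 5 members for ureteric bud over progenitor. They ranged from 2148 to 3460 genes for tubule over early nephron and 1049 to 1852 for proximal over loop and distal. Interactions with stroma ranged from 65 to 223 genes and 0 to 2 members in progenitor, 21 to 52 genes and 0 to 1 member in early nephron, and 55 to 94 genes and 0 to 1 member in tubule. The 28 mutant progenitor cells, few and with raised Wfdc2, Dpp4 and Cdh4, limit every value that rests on them.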
